A study of Mus musculus with 6 samples.

Results

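AP-1 is a family of transcription factors that bind DNA as pairs of basic leucine zipper (bZIP) proteins. The members described here are the 10 genes of the FOS, JUN, BATF and small MAF groups with the symbols Fos, Fosb, Fosl1, Fosl2, Jun, Junb, Jund, Batf3, Maff and Mafk, taken by symbol from the 39179 genes listed. FOS proteins do not pair with each other and need a JUN partner, whereas JUN proteins also pair among themselves. BATF3 pairs with JUN proteins and lacks a transactivation domain, and the small MAF proteins MAFF and MAFK, which also lack one, pair with FOS proteins or with NRF and BACH factors. In bone cells, parathyroid hormone (PTH) acts through its G protein-coupled receptor, cyclic AMP and protein kinase A, a route on which Fos is a well-known early target, and AP-1 acts on matrix protease and osteoblast genes.

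RNA was measured in Ocy454, a mouse cell line with osteocyte properties, of which the study used a subclone grown from a single cell, so that all values come from 1 clone. The cells had been kept for 14 days at the higher, differentiating temperature. They were then given vehicle, 1 nM PTH (amino acids 1-34) or 0.5 µM YKL-05-093, an inhibitor of the salt-inducible kinases, for 4 h. Per the labels, the vehicle was saline with hydrochloric acid. The study's supplement names dimethyl sulfoxide as the solvent of compound stocks for work in vitro, and this difference was not settled. Each condition has 2 libraries, made from RNA depleted of ribosomal RNA, and values are RPKM, the reads of a gene scaled to its length and to the reads of the library. The labels do not say whether the libraries came from separate cultures, so the p-values measure the spread between these libraries, which may be technical.

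Between 17505798 and 27983585 reads lay behind a library. The vehicle libraries were less alike than the others, with a median absolute log2 difference over the tested genes of 0.333, against 0.108 for PTH and 0.103 for YKL-05-093. In the vehicle pair the log2 difference of replicate 1 from replicate 2 went with gene length, with a median of -0.32 for genes of under 1000 bases and 0.43 for genes of 5000 bases and over. Of 9 osteocyte markers, 6 reached 0.5 RPKM in at least 2 libraries, and all 6 osteoblast markers did. Sost, Mepe and Fgf23, which mark mature osteocytes, were under 0.5 RPKM in every library, as were all 4 adipocyte and all 4 muscle markers. Of the other lists, 2 of 5 chondrocyte, 1 of 4 endothelial and 1 of 6 haematopoietic markers reached it. The summed osteocyte markers lay between 101 and 114 RPKM in vehicle, 193 and 204 with PTH and 131 and 134 with YKL-05-093, and their part in the results below was not tested. Pdpn makes up most of that sum, and the other 8 markers summed to 47.9 and 43.1 RPKM in vehicle, 33.7 and 30.5 with PTH, and 34.8 and 40.8 with YKL-05-093, the opposite direction. In bulk RNA, fewer cells of a type and less RNA per cell cannot be told apart.

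At the promoters, the letters of the cyclic AMP response element, to which CREB binds, were searched as TGACGTCA in full and as TGACG for its core, which the full element contains, beside TGANTCA for the AP-1 site, TGACATCA for the site known from Jun, and the CArG box of serum response factor. Both strands were read from 250 bases before to 50 after each start site. RefSeq windows of GRCm38.p6 were at hand for 9 members, in 11 windows because Maff has 3, and Fosl1 has none. The core stood in 6 of these 11 windows, those of Fos, Fosb, Junb, Mafk and 2 of Maff, and in 20.8% of all 32851 windows. The full element stood in 1 window of Maff (1.79% of all windows), and TGACATCA in the windows of Jun and Maff (3.62% of all). TGANTCA (7.81% of all) and the CArG box (1.63% of all) were found in no member's window, which says only that the letters are not in these bases. Fos is shown for its pair of cores, at -129 and -66 from the start site. Junb has a core at -106, Jun has TGACATCA at -45, and Maff has the full element at -29. Fosl2, the most abundant FOS transcript in every library, is shown as a window with none of these letters. Each sequence runs 5′ to 3′ along its gene, with the matched letters in capitals.
Fos, chr12:85473640-85473939, plus strand: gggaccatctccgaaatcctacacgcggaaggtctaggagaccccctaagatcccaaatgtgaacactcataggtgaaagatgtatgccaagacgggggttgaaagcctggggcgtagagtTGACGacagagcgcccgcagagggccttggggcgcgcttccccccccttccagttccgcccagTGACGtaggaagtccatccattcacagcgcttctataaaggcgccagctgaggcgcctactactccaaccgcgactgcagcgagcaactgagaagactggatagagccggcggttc
Junb, chr8:84978699-84978998, minus strand: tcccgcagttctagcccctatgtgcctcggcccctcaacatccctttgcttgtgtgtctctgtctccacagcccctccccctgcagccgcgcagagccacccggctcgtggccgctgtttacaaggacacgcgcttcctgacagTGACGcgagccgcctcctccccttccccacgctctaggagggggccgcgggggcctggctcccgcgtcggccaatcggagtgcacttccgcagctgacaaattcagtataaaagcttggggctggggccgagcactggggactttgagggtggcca
Jun, chr4:95052173-95052472, minus strand: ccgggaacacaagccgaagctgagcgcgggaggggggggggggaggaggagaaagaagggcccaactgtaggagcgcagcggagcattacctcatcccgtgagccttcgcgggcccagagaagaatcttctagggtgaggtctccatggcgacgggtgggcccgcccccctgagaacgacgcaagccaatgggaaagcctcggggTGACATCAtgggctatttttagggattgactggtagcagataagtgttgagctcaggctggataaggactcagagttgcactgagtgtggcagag
Maff, chr15:79347270-79347569, plus strand: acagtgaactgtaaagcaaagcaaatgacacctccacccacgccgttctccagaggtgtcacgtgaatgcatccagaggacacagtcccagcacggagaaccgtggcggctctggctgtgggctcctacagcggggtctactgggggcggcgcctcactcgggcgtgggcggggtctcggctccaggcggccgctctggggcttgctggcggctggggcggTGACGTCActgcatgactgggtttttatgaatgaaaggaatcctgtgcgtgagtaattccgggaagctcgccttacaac
Fosl2, chr5:32136222-32136521, plus strand: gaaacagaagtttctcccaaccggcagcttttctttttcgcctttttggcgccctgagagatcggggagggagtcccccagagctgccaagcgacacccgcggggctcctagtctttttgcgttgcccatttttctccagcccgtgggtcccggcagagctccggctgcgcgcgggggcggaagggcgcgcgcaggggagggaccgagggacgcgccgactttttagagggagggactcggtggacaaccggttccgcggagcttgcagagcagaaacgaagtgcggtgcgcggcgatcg

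Fos was higher after both treatments, and it was the only member that was called against vehicle in either comparison. Fosl2 lay above vehicle in all treated libraries without being called, Fosl1 lay above vehicle after PTH and below it after YKL-05-093, and Jund lay above vehicle after YKL-05-093 but not after PTH. Between the treatments, Fosl1, Junb, Jun and Fos were higher after PTH and Jund was higher after YKL-05-093. Only the difference of Fosl1 was over 2-fold, and whether those of Jun and Fos passed depended on the setting of the test. A gene was called at a limma adjusted p under 0.05 and a difference of more than 2-fold, and a difference at that adjusted p but under 2-fold is given as such. Fold changes are on the scale of log2(RPKM + 0.1), which understates those of low genes. Of the 10 members, 9 passed the filter of 0.5 RPKM in at least 2 of the 6 libraries, and Fosb did not and was not tested. PTH and YKL-05-093 were compared with the same vehicle libraries, so the comparisons with vehicle are not independent of each other.

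**Figure D1:**
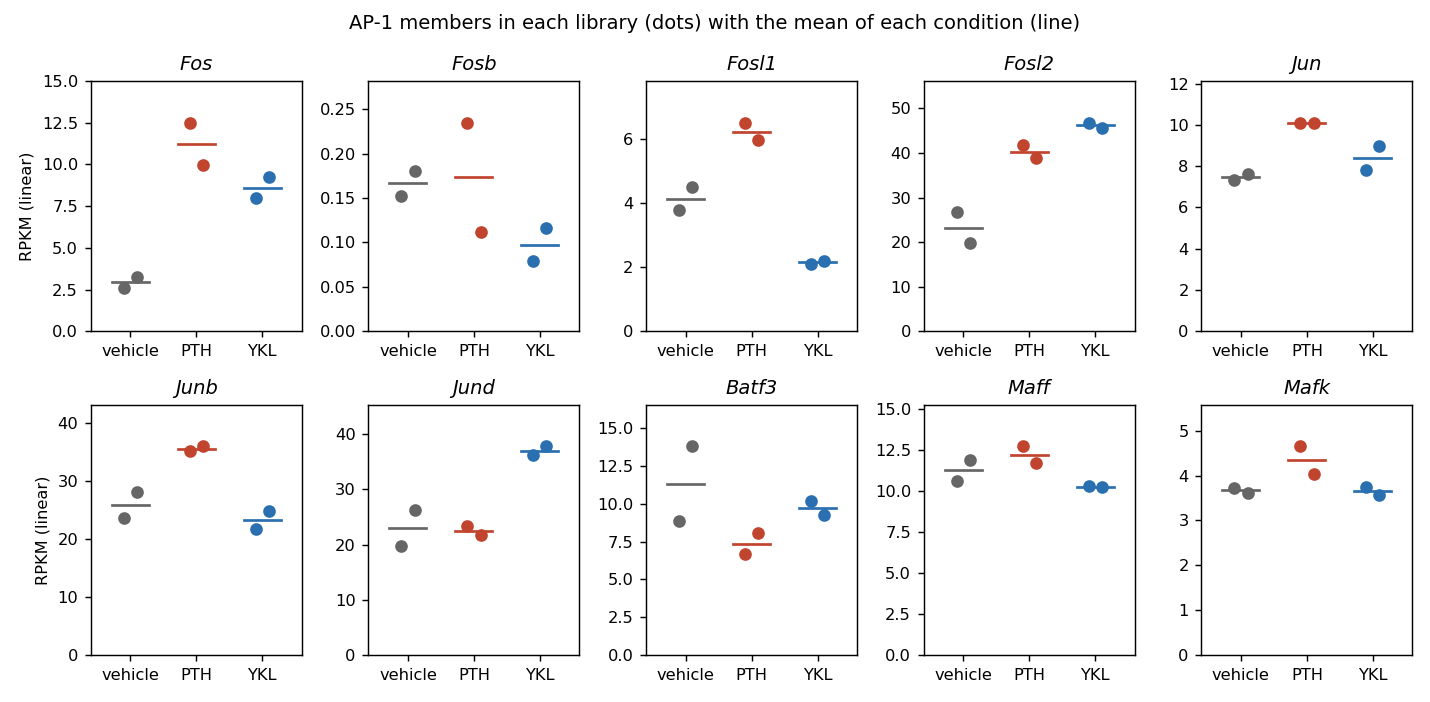
RPKM on a linear axis from 0 for each of the 10 members, with 1 dot per library, a line at the mean of each condition, and a separate axis for each gene (YKL, YKL-05-093). The treated libraries of Fos and Fosl2 lie above both vehicle libraries, the YKL-05-093 libraries of Fosl1 lie below all others (2.11 and 2.21 RPKM), and those of Jund lie above all others (36.2 and 37.8 RPKM).

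For PTH against vehicle, 1 of the 9 tested members was called (Fos, higher), where 1.91% of all 14261 genes tested were called and 1.09% were called higher. The libraries did not overlap for 7 of the 9, with 6 higher and 1 lower after PTH, against 43.1% of all genes tested, of which 19.1% of genes lay higher and 24% lower. The median log2 fold change of the 9 was 0.43, from -0.59 to 1.90, beside -0.03 for all genes tested. For YKL-05-093 against vehicle, 1 of 9 was called, again Fos and higher, against 0.666% of 14255 genes in either direction and 0.393% higher. Here 4 members lay higher and 2 lower without overlap, against 37.8% of all genes (15.7% higher, 22.1% lower), and the median was -0.01, from -0.91 to 1.53, beside -0.04 for all genes.

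For PTH against YKL-05-093, 1 of 9 was called (Fosl1, higher after PTH), against 1.21% of 14255 genes in either direction and 0.737% higher. At an adjusted p under 0.05 and any fold, 5 of the 9 differed, 4 of them higher after PTH (Fosl1, Junb, Jun and Fos) and 1 lower (Jund), against 9.97% of all genes (4.85% higher, 5.11% lower). All 9 tested members had libraries that did not overlap between the treatments, with 6 higher and 3 lower after PTH, and this held for 50% of all genes tested (26.3% higher, 23.7% lower). The median of the 9 was 0.25, beside 0.01 for all genes.

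**Figure D2:**
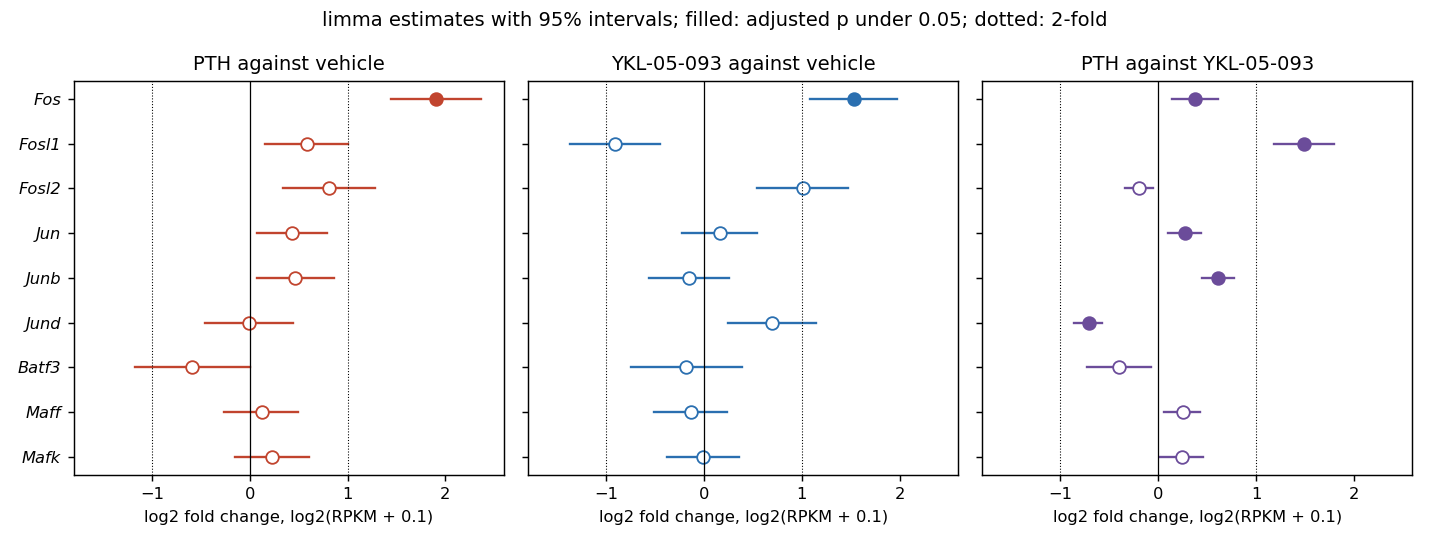
Log2 fold change of log2(RPKM + 0.1) with its 95% interval from limma for the 9 tested members in each of the 3 comparisons, with filled dots for an adjusted p under 0.05 and dotted lines at 2-fold. Fos is the one filled dot in each comparison with vehicle (1.90 and 1.53), and Fosl1 (1.49) and Jund (-0.71) lie furthest from 0 on opposite sides when PTH is set against YKL-05-093.

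Among the FOS proteins, Fos (ENSMUSG00000021250, chr12:85473890-85477273 on the plus strand of GRCm38, as for all positions below, 4 exons) encodes the classical immediate-early partner of JUN. Its transcript stood at 2.6 and 3.26 RPKM in vehicle, 12.5 and 9.96 with PTH, and 7.96 and 9.26 with YKL-05-093, from 107 to 635 reads. Each treated library was above both vehicle libraries, and both PTH libraries were above both YKL-05-093 libraries. After PTH, Fos rose 3.74-fold, a log2 fold change of 1.90 (SE, standard error, 0.20, 95% interval 1.44 to 2.36, limma adjusted p = 0.00456). After YKL-05-093 it rose 2.88-fold, with a log2 fold change of 1.53 (SE 0.19, 95% interval 1.08 to 1.97, limma adjusted p = 0.0274). The treatments differed by 0.38 (SE 0.11, limma adjusted p = 0.043), which is under 2-fold, and without PTH replicate 1 this was 0.21. That difference did not pass 0.05 with a pseudocount of 0.01 or 1 RPKM (limma adjusted p = 0.0666 or 0.0805). The call for PTH was lost without PTH replicate 1 (adjusted p = 0.142) or 2 (0.0816), and that for YKL-05-093 without vehicle replicate 1 (0.0721) or YKL-05-093 replicate 1 (0.229) or 2 (0.126), with log2 fold changes from 1.37 to 2.07 over all these fits. Leaving a library out sets an arm to 1 library, whose spread is then taken to be like that of the others. It was also lost in both comparisons without the filter on low values (0.0683 and 0.188) and without the trend of the spread on reads (0.0587 and 0.138), and for YKL-05-093 with the spread fitted to mean values (0.093).

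Fosb (ENSMUSG00000003545, chr7:19302696-19310051, minus strand), the other FOS protein induced as an immediate-early gene, was barely detected at 4 h. It had 10 and 19 reads in vehicle, 19 and 8 with PTH, and 6 and 9 with YKL-05-093, or 0.0789 to 0.235 RPKM over the 6 libraries. The vehicle libraries lay between the PTH libraries, and the YKL-05-093 libraries were below vehicle and overlapped PTH. With so few reads, a modest difference in Fosb was not detectable at this depth. The core at -60 in its promoter window is the same 5 letters found at Fos.

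Fosl1 (ENSMUSG00000024912, chr19:5447547-5455946, plus strand) encodes FRA1, a FOS protein without the transactivation domain of FOS that raises bone mass when overexpressed in mice. It stood at 3.79 and 4.51 RPKM in vehicle, 6.52 and 5.97 with PTH, and 2.11 and 2.21 with YKL-05-093. The 3 conditions did not overlap, with PTH highest, vehicle between and YKL-05-093 lowest. The difference from vehicle was 0.58 on the log2 scale for PTH (95% interval 0.16 to 1.00, limma adjusted p = 0.206) and -0.91 for YKL-05-093 (95% interval -1.37 to -0.45, limma adjusted p = 0.135), and neither passed. Set directly against each other, PTH exceeded YKL-05-093 by 2.81-fold, a log2 difference of 1.49 (SE 0.15, 95% interval 1.18 to 1.80, limma adjusted p = 3.22e-06). This call was lost without PTH replicate 1 (1.43, adjusted p = 0.144) or 2 (1.55, adjusted p = 0.134), settings in which limma called 0 of all genes (2130 and 2022 at an unadjusted p under 0.05).

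In GENCODE M21, exons of Fosl1 share 1163 bases with Ccdc85b on the opposite strand. The reads and RPKM of Ccdc85b imply a counted length under 1163 bases, so the overlap in the counted genes was shorter and is not known. The library kit keeps the strand, but whether the counting used it is not stated, so reads of the pair may not have been told apart. Ccdc85b stood at 24.8 and 33.1 RPKM in vehicle, 39.4 and 40.8 with PTH, and 29 and 30.1 with YKL-05-093. It was therefore also higher after PTH than after YKL-05-093, by 0.44 on the log2 scale (limma adjusted p = 0.0042), while its difference between YKL-05-093 and vehicle was 0.04 (limma adjusted p = 0.976), against -0.91 for Fosl1. The part of Ccdc85b in the values of Fosl1 was not tested.

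Fosl2 (ENSMUSG00000029135, chr5:32135801-32157842, plus strand) encodes FRA2, which acts on osteoblast differentiation and collagen genes. It was the most abundant FOS transcript in each library, at 26.7 and 19.8 RPKM in vehicle, 41.7 and 38.8 with PTH, and 46.8 and 45.6 with YKL-05-093. All treated libraries were above both vehicle libraries, and YKL-05-093 was above PTH without overlap. The log2 difference from vehicle was 0.81 after PTH (SE 0.20, 95% interval 0.34 to 1.28, limma adjusted p = 0.116). After YKL-05-093 it was 1.01, or 2.01-fold (SE 0.20, 95% interval 0.54 to 1.47, limma adjusted p = 0.105). Neither passed the test, and the treatments differed by -0.20 (95% interval -0.34 to -0.05, limma adjusted p = 0.0807). The vehicle libraries differed by 0.43 on the log2 scale at Fosl2, equal to the median of that pair for genes of 5000 bases and over, and the length behind its RPKM is 5851 bases. Without vehicle replicate 1, Fosl2 was called after PTH (1.02, adjusted p = 0.00346) and after YKL-05-093 (1.22, adjusted p = 0.0343). For YKL-05-093 it was also called with all 6 libraries in 1 fit (adjusted p = 0.0241), with the gene length trend removed (1.11, adjusted p = 0.00268) and with the replicate number as a block (adjusted p = 0.0248). For PTH the same settings, in that order, gave 0.81 (limma adjusted p = 0.0357), 0.92 (0.00238) and 0.81 (0.04). Those differences are under 2-fold, so Fosl2 was not called for PTH in these settings.

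Summed over the 4 FOS proteins, transcripts came to 33.2 and 27.7 RPKM in vehicle, 60.9 and 54.9 with PTH, and 57 and 57.2 with YKL-05-093. Both treatments thus lay above vehicle and beside each other in the sum. The makeup differed, in that Fos held 7.84% and 11.8% of the sum in vehicle, 20.5% and 18.2% with PTH, and 14% and 16.2% with YKL-05-093. Fosl1 held 11.4% and 16.3% in vehicle, 10.7% and 10.9% with PTH, and 3.71% and 3.86% with YKL-05-093. Fosl2 held at least 68.4% in every library, with its highest share, 82.2%, in a YKL-05-093 library. These sums and shares are levels per gene length and carry no test.

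**Figure D3:**
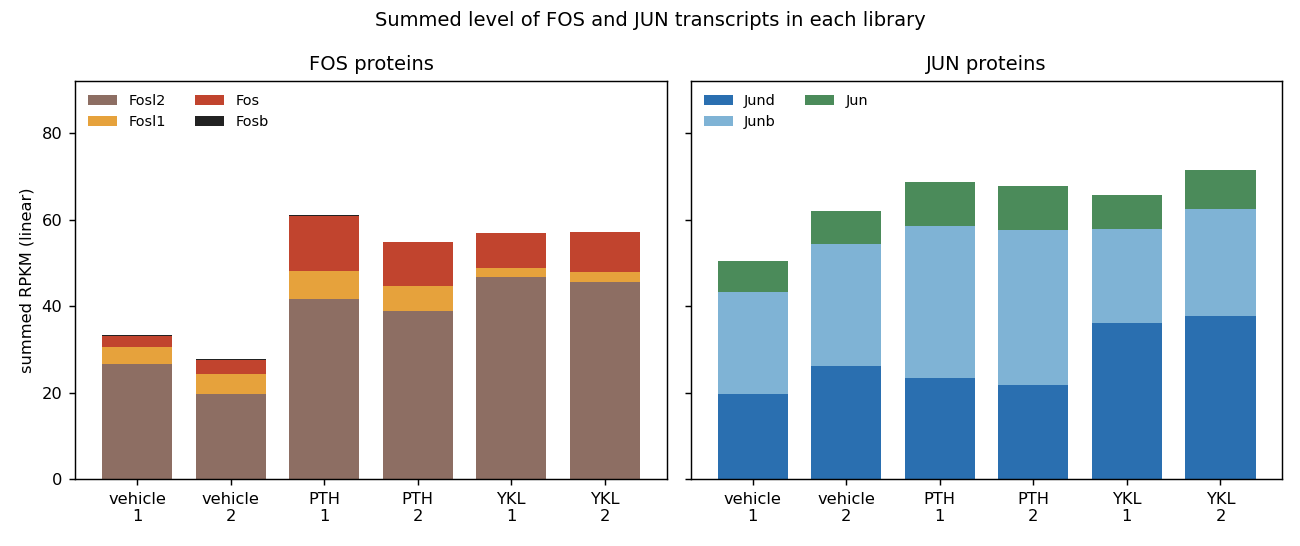
Summed RPKM on a linear axis from 0 in each of the 6 libraries, stacked by gene, for the FOS proteins (left; Fosb is too low to see) and the JUN proteins (right). Fosl2 makes up most of the FOS sum throughout, and the part of Jund in the JUN sum is larger after YKL-05-093 (55.1% and 52.9%) than after PTH (34.1% and 32.1%), shares that rest on the deposited gene lengths.

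Among the JUN proteins, Jun (ENSMUSG00000052684, chr4:95049034-95052222, minus strand, 1 exon), the strongest activator of the group, stood at 7.34 and 7.64 RPKM in vehicle, 10.1 and 10.1 with PTH, and 7.83 and 8.95 with YKL-05-093. The PTH libraries were above all others, and YKL-05-093 was just above vehicle. The log2 difference from vehicle was 0.43 after PTH (95% interval 0.07 to 0.79, limma adjusted p = 0.284) and 0.16 after YKL-05-093 (95% interval -0.22 to 0.54, limma adjusted p = 0.867). The treatments differed by 0.27 (SE 0.08, limma adjusted p = 0.0441), or 1.2-fold, and by 0.17 to 0.36 in the fits that left out a library. That difference did not pass 0.05 with a pseudocount of 0.01 or 1 RPKM (limma adjusted p = 0.0595 or 0.0725). It also did not pass with a filter at 0.1 RPKM (0.0925) or with the spread fitted to mean values (0.181).

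Junb (ENSMUSG00000052837, chr8:84974484-84978718, minus strand, 3 exons), which activates less than JUN and can oppose it, had the highest RPKM of the JUN transcripts in vehicle and after PTH, an order that turns with the gene lengths used (below). It stood at 23.5 and 28.1 RPKM in vehicle, 35.1 and 35.9 with PTH, and 21.7 and 24.7 with YKL-05-093. PTH was above all other libraries, while vehicle and YKL-05-093 overlapped. The difference from vehicle was 0.46 after PTH (95% interval 0.07 to 0.86, limma adjusted p = 0.288) and -0.15 after YKL-05-093 (95% interval -0.56 to 0.26, limma adjusted p = 0.881). PTH exceeded YKL-05-093 by 1.53-fold, a log2 difference of 0.61 (SE 0.08, limma adjusted p = 4.57e-05), under the limit of 2-fold. Without PTH replicate 1 or 2 the adjusted p was 0.186 or 0.209, and in 1 fit of all 6 libraries it was 0.12.

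Jund (ENSMUSG00000071076, chr8:70698949-70700616, plus strand, 1 exon) is expressed broadly in resting cells and, unlike Jun and Junb, is not an immediate-early gene. It stood at 19.7 and 26.2 RPKM in vehicle, 23.4 and 21.7 with PTH, and 36.2 and 37.8 with YKL-05-093. Vehicle and PTH overlapped, and both YKL-05-093 libraries were above the other 4. The log2 difference from vehicle after PTH was -0.01 (95% interval -0.46 to 0.44, limma adjusted p = 0.988), whose sign turned with centring of the libraries (0.02) and with removal of the gene length trend (0.01). After YKL-05-093 it was 0.70 (SE 0.19, 95% interval 0.25 to 1.15, limma adjusted p = 0.256), which did not pass. Jund was lower after PTH than after YKL-05-093, by -0.71 on the log2 scale or 1.64-fold (SE 0.07, limma adjusted p = 3.06e-06). Without PTH replicate 1 or 2 the adjusted p was 0.127 or 0.129, and in 1 fit of all 6 libraries it was 0.112, with the log2 difference between -0.77 and -0.66 over all alternatives.

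The JUN transcripts summed to 50.5 and 62 RPKM in vehicle, 68.6 and 67.7 with PTH, and 65.7 and 71.5 with YKL-05-093. The treated libraries were above vehicle and overlapped each other. Junb held 46.5% and 45.3% of the sum in vehicle, 51.2% and 53% with PTH, and 33% and 34.5% with YKL-05-093. Jund held 38.9% and 42.4% in vehicle, 34.1% and 32.1% with PTH, and 55.1% and 52.9% with YKL-05-093. Jun held 11.9% to 14.9% in all libraries. The share of Jund was higher, and that of Junb lower, with YKL-05-093 than with PTH. The ratio of the FOS sum to the JUN sum was 0.657 and 0.447 in vehicle, 0.889 and 0.811 with PTH, and 0.866 and 0.8 with YKL-05-093.

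Levels between genes rest on the lengths behind the RPKM, and these differ from the merged exons of GENCODE M21. They were 5034 bases for Jun (3189 in GENCODE), 1839 for Junb (2301), 2877 for Jund (1668), 5851 for Fosl2 (9680) and 709 for Batf3 (1597). A length is the same in every library, so it bears on sums, shares and the order of genes and not on a comparison of 1 gene between conditions. An alternative added after seeing the data rescaled the RPKM to the GENCODE lengths, with the reads left as the authors counted them. Rescaled values are therefore not levels over the GENCODE exons, and show only how far the order depends on length. For Jund, the RefSeq start site at 70697739 lies before the GENCODE start at 70698949, so the GENCODE gene is the shorter one. In the rescaled values, Jund and not Junb led the JUN transcripts in every library. Jund then held 52.8% and 56.8% of the JUN sum in vehicle, 47.9% and 45.6% with PTH, and 67.8% and 65.8% with YKL-05-093, still highest with YKL-05-093. Junb held 29.2% and 28.1%, 33.2% and 34.9%, and 18.8% and 19.9% in the same order. The rescaled JUN sum was 64.3 and 79.8 in vehicle, 84.3 and 82 with PTH, and 92.2 and 99.1 with YKL-05-093. The treatments did not overlap in these rescaled values, which lean on the short GENCODE length of Jund. Fosl2 kept the largest share of the FOS sum, from 58.2% to 74.3%, and Fosl1 its lowest shares with YKL-05-093, 4.65% and 4.78%.

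In GENCODE M21, exons on the opposite strand overlap Jun by 232 bases (Junos, 6 to 19 reads per library), Junb by 173 (Prdx2), Jund by 877 (Gm11175, 0 reads in every library) and Mafk by 169 (Tmem184a, 8 to 22 reads). The overlaps in the genes as the authors counted them may differ. Prdx2 had 3667 to 8705 reads and differed between PTH and YKL-05-093 by 0.11 on the log2 scale (limma adjusted p = 0.464), against 0.61 for Junb.

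Batf3 (ENSMUSG00000026630, chr1:191097847-191108945, plus strand), best known for its part in dendritic cells, stood at 8.86 and 13.8 RPKM in vehicle, 6.66 and 8.06 with PTH, and 10.2 and 9.25 with YKL-05-093. It was the one tested member that was lower in both PTH libraries than in both vehicle libraries, while YKL-05-093 lay within the range of vehicle. The difference after PTH was -0.59 on the log2 scale (SE 0.25, limma adjusted p = 0.37), after YKL-05-093 it was -0.18 (95% interval -0.75 to 0.39, limma adjusted p = 0.897), and between the treatments it was -0.40 (limma adjusted p = 0.129). None passed, and the vehicle libraries themselves differed by -0.63 at Batf3, whose RPKM rests on a length of 709 bases, against 1597 in GENCODE.

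Maff (ENSMUSG00000042622, chr15:79346621-79359076, plus strand) had the full cyclic AMP response element in 1 of its windows and stood at 10.6 and 11.9 RPKM in vehicle, 12.7 and 11.7 with PTH, and 10.3 and 10.2 with YKL-05-093. PTH overlapped vehicle, and YKL-05-093 was below both. The log2 differences were 0.12 for PTH (95% interval -0.26 to 0.49), -0.13 for YKL-05-093 (95% interval -0.51 to 0.24) and 0.25 between the treatments (95% interval 0.06 to 0.43), with adjusted p from limma of 0.828, 0.889 and 0.0972. Mafk (ENSMUSG00000018143, chr5:139791513-139802653, plus strand) stood at 3.73 and 3.62 RPKM in vehicle, 4.65 and 4.04 with PTH, and 3.75 and 3.56 with YKL-05-093. PTH was above the other libraries, and YKL-05-093 spanned the range of vehicle. The log2 differences of Mafk were 0.23 for PTH (95% interval -0.15 to 0.61), -0.01 for YKL-05-093 (95% interval -0.38 to 0.36) and 0.24 between the treatments (95% interval 0.02 to 0.46), with adjusted p from limma of 0.643, 0.996 and 0.189. The intervals for both small MAF genes against vehicle exclude a change of 2-fold in either direction.

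By mean RPKM as deposited, the order in vehicle was Junb (25.8), Fosl2 (23.2), Jund (23), Batf3 (11.3), Maff (11.3), Jun (7.49), Fosl1 (4.15), Mafk (3.68), Fos (2.93) and Fosb (0.167). The ranges of the first 3 overlapped, as did those of Batf3 and Maff, and the other neighbours did not overlap. After PTH, Fosl2 (40.2) came first, followed by Junb (35.5) and Jund (22.6), and Fos (11.2) lay between Maff (12.2) and Jun (10.1), with a range that overlapped that of Maff and included that of Jun. After YKL-05-093, Fosl2 (46.2) was followed by Jund (37) and Junb (23.2), the ranges of Batf3 (9.73), Fos (8.61) and Jun (8.39) overlapped from 1 to the next, and Fosl1 (2.16) was last but for Fosb (0.0974). Fos was thus 9th of 10 in vehicle, 5th after PTH and 6th after YKL-05-093. Rescaled to the GENCODE lengths, which gives no level over those exons, the order in vehicle began with Jund (39.6), Junb (20.6), Fosl2 (14), Jun (11.8), Maff (9.19) and Batf3 (5.02). Jund also came first in rescaled values after PTH (38.9) and YKL-05-093 (63.9), and Fos was 9th in vehicle and 5th after either treatment.

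The 3 genes with the profile nearest to each member over the 6 libraries were found by the Euclidean distance between centred log2(RPKM + 0.1) values, over all tested genes. For Fos these were Gm22454 (0.32), C2cd4c (0.32) and Gng4 (0.34), where the distance of Fos to a gene with no variation is 2.05. For Fosl1 they were Ifi204 (0.19), Gm15673 (0.21) and Epha2 (0.27), beside 1.51 for no variation. Epha2 stood at 3.83 and 3.74 RPKM in vehicle, 5.4 and 4.97 with PTH, and 1.92 and 2.1 with YKL-05-093, with the same order of conditions as Fosl1. The nearest to Fosl2 were Ston2 (0.12), Mfsd9 (0.18) and Pde3b (0.25), to Junb Msx1 (0.08), Idnk (0.14) and Plscr1 (0.14), and to Jund Dusp14 (0.17), Dbil5 (0.18) and Amacr (0.18). Some of these profiles rest on few reads per library, namely Gm22454 (3 to 18), Gm15673 (3 to 14) and Dbil5 (9 to 22). Among the members themselves, the nearest to Fos was Fosl2 at 1.24, to Fosl1 Junb at 0.96, and to Jund Batf3 at 0.96, which is further than its distance of 0.87 to a gene with no variation. The profiles of Maff and Mafk were 0.22 apart, near their own sizes of 0.29 and 0.31.

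Genes around the family were described by 3 lists, which were written with earlier results of these data known. Of the 23 other bZIP genes that can pair with AP-1 proteins or share their sites, 18 were tested. Crem, which encodes a CREB relative and the cyclic AMP repressor ICER, was the 1 gene called after PTH, where 1.91% of all genes were called and 1.09% higher. It stood at 0.89 and 1.1 RPKM in vehicle, 2.92 and 2.94 with PTH, and 2.13 and 1.96 with YKL-05-093. The treated libraries were above vehicle, with a log2 fold change of 1.47 for PTH (SE 0.17, limma adjusted p = 0.00791) and 0.97 for YKL-05-093 (SE 0.18, limma adjusted p = 0.0887), which did not pass. After YKL-05-093, 0 of the 18 were called by limma, with 5 at an unadjusted p under 0.05, which 8.67% of all genes reached. Between the treatments 1 of the 18 was called, against 1.21% of all genes, namely Creb5, lower after PTH by -1.11 on the log2 scale (limma adjusted p = 0.00492). Creb5 stood at 0.829 and 0.483 RPKM in vehicle, 0.443 and 0.484 with PTH, and 0.992 and 1.26 with YKL-05-093. Outside the YKL-05-093 libraries it reached 0.5 RPKM in vehicle 1 alone, so it passed the filter through the treatment in which it was high. At an adjusted p under 0.05 and any fold, 2 of the 18 were higher after PTH than in vehicle, where 313 of 14261 genes differed in either direction. Between the treatments, 2 of the 18 were higher after PTH and 5 lower at that adjusted p, against 4.85% and 5.11% of all genes. The medians of the list, 0.11, 0.14 and -0.01, stood beside -0.03, -0.04 and 0.01 for all genes in the 3 comparisons.

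Of 25 kinases and factors that act on FOS and JUN (MAP kinases and their activators, ribosomal S6 kinases, ternary complex factors and serum response factor among them), 24 were tested and 0 were called by limma in any comparison, with 1, 3 and 5 at an unadjusted p under 0.05 in the order PTH, YKL-05-093 and PTH against YKL-05-093, where 13.3%, 8.67% and 22.3% of all genes reached it. Srf, which encodes serum response factor, an activator of Fos through the CArG box, stood at 17.9 and 16.1 RPKM in vehicle, 9.3 and 9.5 with PTH, and 11.7 and 11.6 with YKL-05-093. It was lower in all treated libraries, by -0.85 after PTH (limma adjusted p = 0.0455, under 2-fold) and by -0.54 after YKL-05-093 (limma adjusted p = 0.307). At an adjusted p under 0.05 and any fold, 1 of the 24 was higher after PTH than after YKL-05-093 and 2 were lower. Of all genes, 4.85% were higher and 5.11% lower. These were Map2k3 (0.27, limma adjusted p = 0.0214), Map2k6 (-0.52, limma adjusted p = 0.00109) and Srf (-0.31, limma adjusted p = 0.012). Srf, Map2k3 and Map2k6 are named here after their values were seen.

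Of 30 textbook AP-1 target genes, 26 were tested. After PTH, 5 were called higher, where 1.09% of all genes were. Mmp13, which is 1 of these, passed the filter only through its PTH libraries. After YKL-05-093, 1 was called, and it was higher, where 0.393% of all genes were. Between the treatments 4 were called, Mmp13 again among them, each higher after PTH than after YKL-05-093, where 0.737% of all genes were. At an adjusted p under 0.05 and any fold, 10 of the 26 were higher after PTH than after YKL-05-093 and 0 lower, against 4.85% and 5.11% of all genes. The medians of the 26 were 0.27, 0.05 and 0.16. The list holds secreted proteases and other genes that many factors act on, so its counts do not measure AP-1 activity. It was written with earlier results of these data known, so its counts beside the share of all genes are no test of the list.

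**Figure D4:**
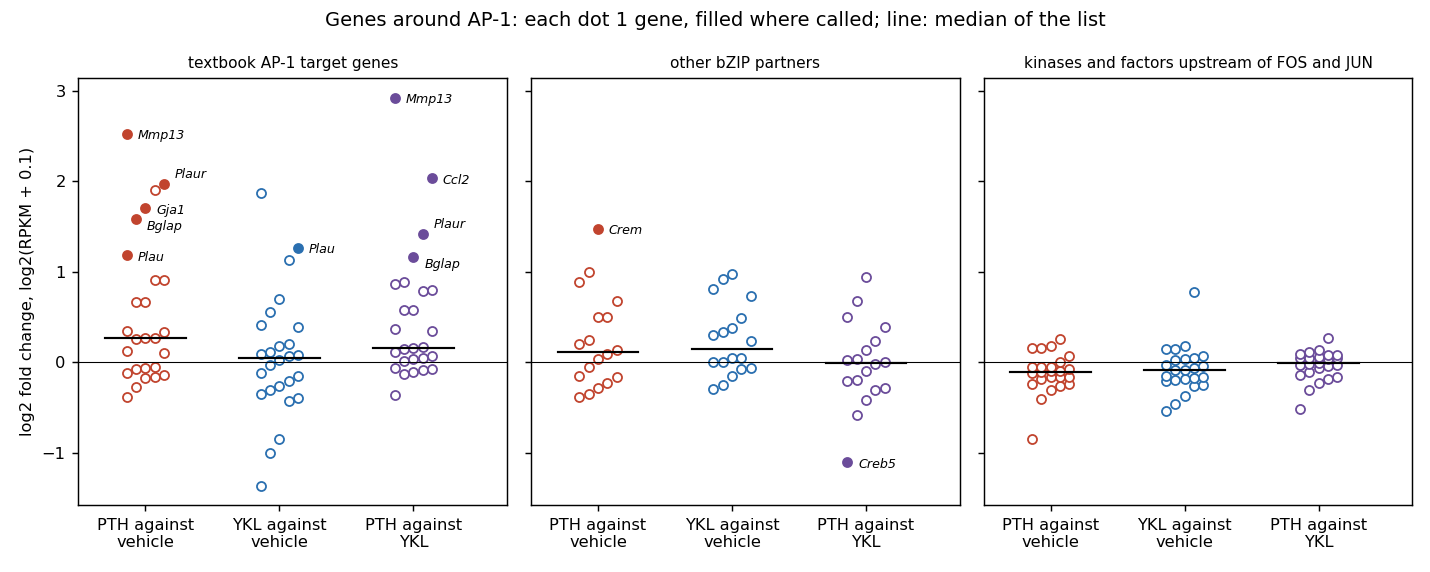
Log2 fold change of log2(RPKM + 0.1) for each tested gene of the 3 lists (26 target genes, 18 other bZIP partners, 24 upstream kinases and factors) in the 3 comparisons, filled and named where called, with a line at the median (YKL, YKL-05-093). The target genes reach from -0.39 to 2.52 after PTH, and no upstream gene is filled.

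Mmp13, the collagenase whose induction by PTH through AP-1 and RUNX2 is a textbook case, stood at 0.343 and 0.228 RPKM in vehicle, 2.81 and 1.53 with PTH, and 0.24 and 0.145 with YKL-05-093. It rose after PTH by 2.52 on the log2 scale (SE 0.34, limma adjusted p = 0.013), and YKL-05-093 overlapped vehicle at -0.40 (95% interval -1.37 to 0.57, limma adjusted p = 0.868). PTH exceeded YKL-05-093 at Mmp13 by 2.92 (SE 0.31, limma adjusted p = 7.01e-06), from 8 to 162 reads per treated library. Both PTH libraries of Mmp13 were above the other 4, which all lay under the filter of 0.5 RPKM. Mmp13 was thus tested only because of its PTH libraries, and its call is not independent of that filter.

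Plaur, the urokinase receptor, stood at 8.72 and 11.1 RPKM in vehicle, 41.9 and 35.6 with PTH, and 14.6 and 14.3 with YKL-05-093. The log2 fold change of Plaur was 1.97 for PTH (limma adjusted p = 0.00364), 0.55 for YKL-05-093 (limma adjusted p = 0.395) and 1.42 between them (limma adjusted p = 2.7e-08). Plau, the urokinase itself, was the 1 target called after both treatments. Its level went from 16.5 and 17.1 RPKM in vehicle to 38.1 and 38.4 with PTH and 42.4 and 38.1 with YKL-05-093. This gave log2 fold changes of 1.18 (limma adjusted p = 0.012) and 1.26 (limma adjusted p = 0.0278), and the treatments differed by -0.07 (95% interval -0.22 to 0.08). For Plaur the PTH libraries were above all others, and for Plau both treatments were above vehicle and overlapped each other.

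Gja1, the gap junction protein connexin 43, rose after PTH by 1.70 (limma adjusted p = 0.00402), from 16.3 and 13.9 RPKM to 51.3 and 47.1. After YKL-05-093 it stood at 30.5 and 35.7 RPKM, a log2 difference of 1.13 that did not pass (limma adjusted p = 0.0511). Bglap, osteocalcin, rose after PTH by 1.58 (limma adjusted p = 0.0283), from 6.61 and 11.5 to 27.1 and 25.3 RPKM, and was 1.16 higher than after YKL-05-093 (limma adjusted p = 4.55e-06). Bglap has near-identical neighbours, so how its reads were shared among them is uncertain. Ccl2, a monocyte chemokine, was 2.03 higher after PTH than after YKL-05-093 (limma adjusted p = 4.55e-10), at 46.9 and 49.5 against 12.5 and 11 RPKM. Its vehicle libraries lay apart at 22.8 and 40.6, between the treatments. The log2 difference of Ccl2 from vehicle was 0.66 after PTH (limma adjusted p = 0.342) and -1.37 after YKL-05-093 (limma adjusted p = 0.108), and neither passed.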

How the data were processed

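RNA was measured in 6 libraries, 2 for each of 3 conditions. Per the labels and the study's methods, RNA depleted of ribosomal RNA was made into directional libraries, and the authors used STAR to map reads to mm10/GRCm38, counted them per gene with HTSeq and deposited RPKM values on a linear scale. Base calling used CASAVA 1.7 per the submitters' processing notes. Per the study's methods, the counting used an Ensembl annotation of mm10/GRCm38. Positions, exon overlaps and rescaled lengths here come from GENCODE M21, a different annotation. The use of strand in the counting and the way gene lengths were taken are not given in the sources used here.

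The whole reads behind each RPKM were recovered from the steps between values, for 26214 of 26214 genes above 0 (tolerance 0.001 reads), and sum to 99.7% of the library totals. The search sets lengths and totals so that reads come out whole, so this is no check of it. The recovered reads describe depth and model the spread, and the values tested are the deposited ones. Count tests were not used. limma 3.58.1 in R 4.3.3 was fitted to log2(RPKM + 0.1) for 14264 genes (0.5 RPKM or more in 2 or more libraries), separately for the 4 libraries of each comparison, with a trend of the spread on recovered reads and Benjamini-Hochberg adjustment over all genes tested. Both steps were tested on simulated data. For limma these gave every library the same spread and no trend with gene length. They therefore do not show how the test behaves with the vehicle pair found here. The smallest p of an exact two-sided permutation test of 2 libraries against 2 is 0.333.

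The members and lists, the test and its settings were chosen with earlier results of these data known. All members are named, and listed genes are named where called (1 gene of the target list is not reported here and was left out of its counts and medians), and for each member the 3 nearest profiles were taken. Positions come from GENCODE M21 (GRCm38), and promoter windows from RefSeq (GRCm38.p6). Alternatives were other pseudocounts, filters, models of the spread, scalings, fits and the omission of each library. Replicate numbers were not taken to pair libraries.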

Additional observations from a re-analysis of the deposited data

How the results depend on the processing

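The direction of each member with an absolute log2 fold change over 0.2 was kept in every alternative. Of 459 log2 fold changes, 429 kept both direction and side of the threshold, but most of these were not called to begin with and stayed so. For PTH against vehicle, Fos kept its call in 13 settings and lost it in 4. For YKL-05-093 against vehicle, Fos kept its call in 11 settings and lost it in 6. Fosl1 kept its call between the treatments in 15 settings and lost it in 2. Reversed signs concerned Jund for PTH against vehicle, at 0.02 with libraries centred on their median, 0.01 with the gene length trend removed, 0.20 without vehicle replicate 2 and 0.04 without PTH replicate 2, Mafk for YKL-05-093 against vehicle, at 0.04 with centring, 0.05 with the length trend removed, 0.01 without vehicle replicate 1 and 0.03 without YKL-05-093 replicate 2, and Batf3 for YKL-05-093 against vehicle, at 0.13 without vehicle replicate 2. Over the fits without 1 library, these values of Jund ranged from -0.22 to 0.20, of Mafk from -0.04 to 0.03 and of Batf3 from -0.50 to 0.13. For PTH against vehicle, where 272 genes and 1 member were called, limma called 0 genes and 0 members without a filter (2343 genes at an unadjusted p under 0.05), 160 genes with the spread fitted to mean values, and 130 genes and 0 members with no trend of the spread. Leaving out 1 library gave 14 to 669 genes and 0 to 2 members. For YKL-05-093 against vehicle, where 95 genes and 1 member were called, there were 55 genes with a pseudocount of 1 RPKM, 57 with a filter at 0.1 RPKM, 0 genes and 0 members without a filter (1734 at an unadjusted p under 0.05), 6 genes and 0 members with the spread fitted to mean values, 29 genes and 0 members with no trend, 173 genes and 2 members in 1 fit of all 6 libraries, and 175 genes and 2 members with the gene length trend removed, an alternative chosen after seeing the data. Leaving out 1 library gave 11 to 321 genes and 0 to 1 member, which without vehicle replicate 1 was Fosl2 in place of Fos. For PTH against YKL-05-093, where 172 genes and 1 member were called, there were 98 genes with a pseudocount of 1 RPKM, 51 with no trend, 102 in 1 fit of all 6 libraries, and 1421 genes and 5 members at adjusted p alone. Leaving out 1 library gave 0 to 155 genes and 0 to 1 member. In that comparison the adjusted p of Fos ranged from 0.00281 to 0.655 and that of Jun from 0.0184 to 0.658, so their differences between the treatments depend on the setting. The cause of these shifts was not tested. Same-numbered libraries did not deviate together (correlations of -0.03, -0.05 and -0.05 over genes). This does not show whether they were prepared together, which the labels do not say. With the replicate number as a block, 440 genes were called for PTH and 215 genes and 2 members for YKL-05-093, Fos and Fosl2. Depth limits Fosb, at 6 to 19 reads per library.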
